A study of Mus musculus with 9 samples.

Results

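The RNAs described here are the small nuclear RNAs (snRNAs), small nucleolar RNAs (snoRNAs) and ribosomal RNA for which a microRNA (miRNA) array carries probes beside its miRNA probes, and which are often used as references. They were taken by name from the deposited raw table, as every probe whose name begins with RNU1, RNU5, RNU6-1, SNORD2, SNORD3@, SNORD13, SNORD38B, SNORD65, SNORD68 or 5S_rRNA, which gave 11 of 2672 probes, since RNU6-1 and RNU6-1_RNU6-2 are separate probes. Each stood in 4 spots on every array. RNA came from the olfactory bulb, the first relay of smell in the brain, taken from male mice of the outbred ICR strain aged 8 weeks. The mice breathed formaldehyde at 3 ppm for 6 hours per day on 7 days (FA 7 days, 3 arrays) or on 1 day (FA 1 day, 3 arrays), or were kept in the same way without it (control, 3 arrays). The labels do not say whether each array holds a separate animal, so the p-values measure only the spread between these arrays.

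The snRNAs U1, U5 and U6, the targets named for RNU1, RNU5 and RNU6-1, are among the RNA parts of the spliceosome, which removes introns from messenger RNA precursors. The SNORD genes make C/D box snoRNAs, most of which guide the methylation of riboses in other RNAs, chiefly ribosomal RNA. Among them U3, the product of the SNORD3 genes, serves in the cleavage of the ribosomal RNA precursor, and U13, the product of SNORD13, in the acetylation of the small subunit's RNA. The 5S rRNA is a part of the large ribosomal subunit. All are made in nearly every cell, and for that reason U6, 5S rRNA and several snoRNAs are used to scale miRNA measurements in brain and other tissues.

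The names on the array are written as human symbols, and whether the probes were designed on the mouse or the human RNA is not given in the sources used here, so how closely each matches its mouse RNA was not tested. Of the 11 names, 4 matched a mouse gene of the same symbol in RefSeq's annotation (assembly GRCm38.p6), namely Snord2, Snord13, Snord65 and Snord68. Snord2 lies within Eif4a2, which encodes a translation initiation factor, Snord68 within Rpl13, which encodes a ribosomal protein, and Snord65 within the long noncoding RNA gene 2410006H16Rik. No other annotated gene spans Snord13. RefSeq lists 51 5S rRNA genes and 18 pseudogenes under the symbol n-R5s. Which of such copies the probe matches was not tested.

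To set the small RNAs beside the miRNAs that varied least, the mature sequences of these miRNAs are given from RefSeq (GRCm38.p6), with the seed, bases 2 to 8 from the 5′ end, in capitals. The set holds those of the 5 with the smallest spread over the 9 arrays after normalization for which a sequence was matched, and the reference miRNAs miR-361-5p and miR-30e-5p, chosen after their values were seen.
mmu-miR-138-1-3p: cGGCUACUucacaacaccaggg
mmu-miR-490-5p: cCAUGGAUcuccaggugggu
mmu-miR-296-3p: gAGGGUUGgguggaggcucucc
mmu-miR-665-5p: aGGGGCCUcugccucuauccaggauu
mmu-miR-361-5p: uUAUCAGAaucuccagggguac
mmu-miR-30e-5p: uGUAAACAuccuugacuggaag
No 2 of the 6 share a seed.

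A pair of arrays stood apart, control replicate 2 and FA 7 days replicate 3. Over the 462 mouse miRNA probes tested, the root mean square of their deviations from the average of the remaining 7 arrays was 0.682 on FA 7 days replicate 3 and 0.913 on control replicate 2 (log2), where each of those 7, set against the rest of them, had 0.265 to 0.470. For the small RNA probes it was 0.732 and 0.841 there, where those 7 had 0.158 to 0.602. Results are therefore also given without both. miR-124-3p, miR-9-5p and miR-128-3p, known from neurons, and miR-200a-3p, miR-200b-3p, miR-429-3p, miR-7a-5p and miR-7b-5p, known from bulb interneurons, were detected on all 9 arrays, while the liver miRNA miR-122-5p was detected on none. The muscle miRNA miR-133a-3p was detected on 6, with raw intensities of 14.5 to 183. Of the oligodendrocyte miRNAs, miR-338-3p was detected on all 9 and miR-219-5p on 8. The blood miRNAs miR-451, miR-144-3p, miR-142-3p and miR-223-3p were detected on all 9 as well.

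All 11 probes were detected on every array, that is, with a mean foreground minus background over their spots of at least 30. Their raw intensities, the median over the 4 spots of foreground minus background, ran from 41.5 to 4969.5 over probes and arrays, where the 7 negative control probes ran from -13 to 27. Of 13 further snRNA and snoRNA probes on the array, 10 were detected on no array. U6B was detected on all 9, SNORD48 on 6 and SNORD12 on 2.

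No difference between the exposure groups passed the test for any of the 11. With limma, 0 of 11 passed an adjusted p of 0.05 in FA 1 day versus control, FA 7 days versus control, FA 7 days versus FA 1 day or the F-test over the 3 groups, where the background was 0% of the 473 probes tested in each. None of the 11 had an unadjusted p under 0.05 either, against 6.13%, 4.23% and 8.03% of all probes tested in the 3 comparisons in that order, and 6.55% in the F-test. On the normalized scale, none had groups that did not overlap, against 14.6%, 10.4% and 19.7%. The 3 comparisons share groups and are not independent of each other.

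The probe named 5S_rRNA had one of the smallest spreads. Its raw intensity was 2057, 1313.5 and 1353.5 in FA 7 days, 1134, 1396 and 1238.5 in FA 1 day, and 1760, 1049 and 1230.5 in control. The highest value, in FA 7 days, was 1.96 times the lowest, in control, and the 3 groups overlapped. On FA 1 day replicate 4, 1 of the 4 spots of 5S_rRNA read 1967 where the other 3 read 1205 to 1255. The normalized values average all 4 spots. On the normalized log2 scale 5S_rRNA averaged 10.63 ± 0.48 in FA 7 days, 10.46 ± 0.27 in FA 1 day and 10.56 ± 0.29 in control (SD, n = 3 each). The difference was 0.08 ± 0.28 (SE, 95% interval -0.56 to 0.71) for FA 7 days and -0.10 ± 0.28 (-0.74 to 0.53) for FA 1 day, each versus control, or -0.22 and -0.12 without both arrays that stand apart. With 3 arrays per group, the data leave differences of any size within these intervals possible.

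SNORD65, with the next smallest spread in raw intensity over the 9 arrays, was the member whose groups came closest to separating. Its raw intensity was 4969.5, 3397.5 and 3082 in FA 7 days, 2690, 2862.5 and 2643 in FA 1 day, and 4174, 3779.5 and 2907 in control. All FA 1 day values thus lay below all values of the other groups. They did so in the deposited ratios too, at 6.76, 7.29 and 6.37 in FA 1 day, against 9.58, 9.61 and 10.6 in FA 7 days and 7.61 to 10.9 in control. Groups failed to overlap for 1 of 11 members in FA 1 day versus control on both of these scales, against 15.4% of all probes in raw values and 14.6% in deposited ratios. In FA 7 days versus FA 1 day the count was 1 of 11 in raw values (11.2% of all probes) and 2 of 11, SNORD65 and 5S_rRNA, in deposited ratios (18.4%). In FA 7 days versus control it was 0 of 11 on both (2.96% and 11.3%).

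The limma difference of SNORD65 was -0.47 ± 0.25 (SE, 95% interval -1.04 to 0.10, adjusted p = 0.683) for FA 1 day versus control, with 11.50 ± 0.09 in FA 1 day and 11.97 ± 0.34 in control (SD, n = 3 each). With the deposited ratios it was -0.48 (limma, adjusted p = 0.814). For FA 7 days versus control it was -0.21 ± 0.25, and 0.06 with the deposited ratios. Leaving out both arrays that stand apart gave -0.38 for FA 7 days and -0.41 for FA 1 day, each versus control. On FA 1 day replicate 2 the 2 spots in block 14 of the array gave 1258 and 1444, and the 2 spots in block 32 gave 4297 and 4281. Those blocks belong to blocks 1 to 18 and to blocks 19 to 36, which repeat each other. The log2 difference between the first and the second of these sets was -1.67 for SNORD65 there, against a median of -0.32 over the 351 mouse miRNA probes detected on all arrays. By block 32 alone, FA 1 day replicate 2 lay at 4289, above 2 of the 3 control arrays, and the groups overlapped. By block 14 alone the FA 1 day arrays lay at 2504, 1351 and 2494 and the control arrays at 4093.5, 3457.5 and 2838.5, with no overlap. FA 7 days replicate 3 also differed between the blocks, at 3901.5 in block 14 and 2240 in block 32. Its log2 difference was 0.81, against a median of 0.36 over the same miRNA probes. By block 32 alone it lay below the FA 1 day arrays (2950.5, 4289 and 2768), so FA 7 days and FA 1 day overlapped. By block 14 alone FA 7 days lay at 4902.5, 3626.5 and 3901.5, above FA 1 day.

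**Figure D1:**
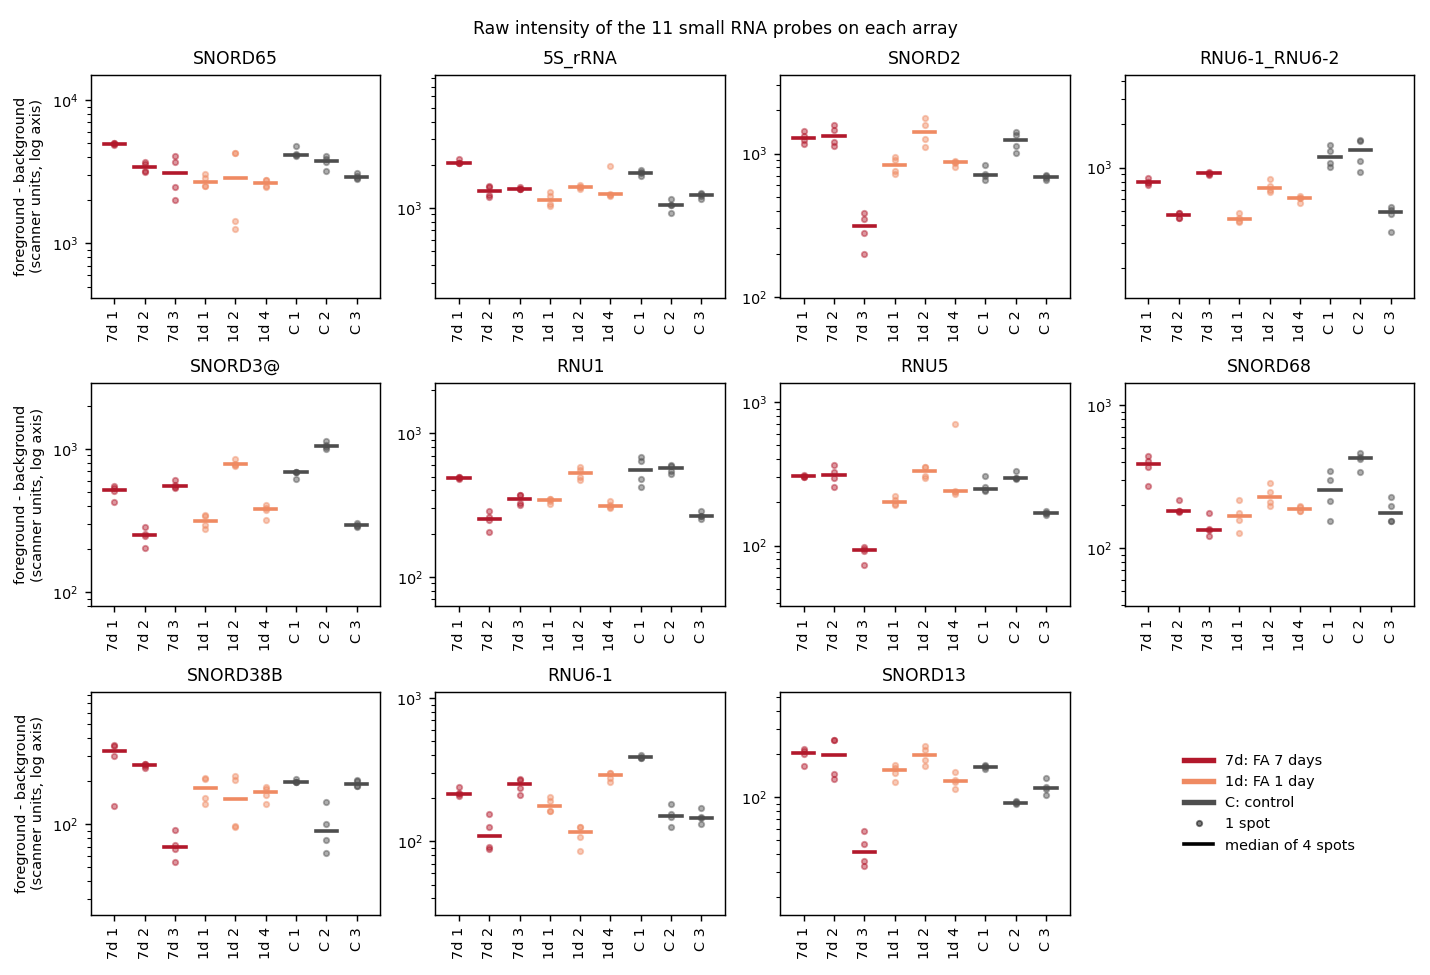
Raw intensity (foreground minus background, scanner units, log axis) of the 11 probes on each array, with FA 7 days (7d), FA 1 day (1d) and control (C) from left to right, spots as points and their median as a bar. SNORD65 has FA 1 day bars of 2643 to 2862.5 below those of both other groups, with 2 of the 4 spots of replicate 2 well apart from the others, and FA 7 days replicate 3 is the lowest array for SNORD2, RNU5, SNORD38B and SNORD13.

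Among the snRNAs, RNU1 had raw intensities of 490, 254.5 and 347.5 in FA 7 days, 341.5, 526 and 310 in FA 1 day, and 558.5, 570 and 265.5 in control. Control replicates 1 and 2 were the highest and the groups overlapped. Its difference was -0.36 ± 0.31 (SE) for FA 7 days and -0.28 ± 0.31 for FA 1 day, each versus control. Without both arrays that stand apart these were -0.36 and -0.12, and leaving out 1 array at a time they ran from -0.67 to -0.20 and from -0.58 to -0.12, with the largest in size without control replicate 3. RNU5 lay at 303.5, 311 and 93 in FA 7 days, 201.5, 329.5 and 238.5 in FA 1 day, and 250, 297 and 168.5 in control. Apart from FA 7 days replicate 3, the lowest, its arrays lay within 168.5 to 329.5. On FA 1 day replicate 4, 1 of its 4 spots read 706 where the other 3 read 228 to 240.

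The probes for U6, the snRNA most often used as a reference, did not keep an even ratio to each other. RNU6-1 lay at 215.5, 109 and 251 in FA 7 days, 177.5, 116.5 and 290 in FA 1 day, and 386, 151 and 146 in control. RNU6-1_RNU6-2 lay at 788.5, 463.5 and 914 in FA 7 days, 437.5, 717 and 617 in FA 1 day, and 1195, 1328.5 and 489 in control. On control replicate 2 the second probe was at its highest value of all arrays while the first was below its own median of 177.5. The raw ratio of RNU6-1 to RNU6-1_RNU6-2 varied 4.14-fold over the 9 arrays, with an SD of 0.63 (log2). That is close to the median of 0.65 over all 55 pairs of the 11 probes. U6B, a U6 probe outside the 11, lay between 93.5 and 143 on 8 arrays and at 427.5 on control replicate 1. RNU6-1 was also highest on that array, and the ratio of RNU6-1 to U6B had an SD of 0.48, varying 2.94-fold. The ratio of RNU6-1_RNU6-2 to U6B had an SD of 0.67. Against control, RNU6-1_RNU6-2 differed by -0.63 ± 0.51 in FA 1 day and by -0.39 ± 0.51 in FA 7 days, or by -0.26 and -0.48 without both arrays that stand apart. RNU6-1 differed by -0.19 ± 0.42 in FA 1 day and -0.04 ± 0.42 in FA 7 days, or by -0.45 and -0.62 without them. The lowest adjusted p among these 4 values without both arrays was 0.574 (limma).

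Among the snoRNAs, SNORD3@ (U3) varied most after normalization. Its raw intensity was 520.5, 250.5 and 552 in FA 7 days, 316, 779 and 379.5 in FA 1 day, and 688.5, 1053 and 292.5 in control. High and low arrays occurred in every group, and the highest value was 4.20 times the lowest. Normalized, it averaged 8.92 ± 0.65 in FA 7 days, 9.07 ± 0.75 in FA 1 day and 9.55 ± 0.97 in control (SD, n = 3 each). The differences versus control, -0.63 ± 0.56 (SE) in FA 7 days and -0.48 ± 0.56 in FA 1 day, became -0.50 and 0.01 without both arrays that stand apart.

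SNORD2 had 1293, 1333 and 313.5 in FA 7 days, 829.5, 1414.5 and 868 in FA 1 day, and 708, 1237 and 686.5 in control. The lowest value was that of FA 7 days replicate 3, and the groups overlapped. Versus control, SNORD2 differed by -0.34 ± 0.45 in FA 7 days, and by 0.48 without both arrays that stand apart. SNORD13 (U13) had 204.5, 197 and 41.5 in FA 7 days, 153.5, 197.5 and 129 in FA 1 day, and 163, 91.5 and 116 in control. SNORD38B had 326, 260 and 69.5 in FA 7 days, 180, 151 and 168.5 in FA 1 day, and 197, 89.5 and 192.5 in control. Both were lowest on FA 7 days replicate 3, with control replicate 2 the next lowest. SNORD68 had 386.5, 182 and 134.5 in FA 7 days, 167.5, 229 and 189 in FA 1 day, and 255, 426 and 175.5 in control, with an adjusted p of 0.685 (limma) for its FA 1 day difference from control of -0.45 ± 0.25, or -0.20 without both arrays. In SNORD68 control replicate 2 and FA 7 days replicate 1 were the high arrays.

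Over the 11 probes, 4 lay higher and 7 lower in FA 1 day than in control (median difference -0.19, against 0.05 over the 473 probes tested), and 3 lay higher and 8 lower in FA 7 days than in control (-0.21, against 0.05). In FA 7 days versus FA 1 day 6 lay higher and 5 lower (0.15, against -0.00). Without both arrays that stand apart 4 lay higher and 7 lower in FA 1 day than in control (median -0.12), 5 higher and 6 lower in FA 7 days than in control (-0.22), and 4 higher and 7 lower in FA 7 days than in FA 1 day (-0.05). The lowest adjusted p of a member was 0.683, 0.758 and 0.923 in the 3 comparisons in that order.

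The order of the members by spread depended on the scale. In raw intensity, the SD over the 9 arrays (log2) was 0.31 for both 5S_rRNA and SNORD65, and 0.46 for RNU1, against a median of 0.54 over the 351 miRNA probes. Only these 3 of 11 lay below that median, and 17 and 19 of the miRNA probes had a smaller SD than 5S_rRNA and SNORD65. In the deposited ratios, which scale each array by 1 factor, 5S_rRNA had 0.27 and SNORD65 0.30, with RNU1, SNORD68 and RNU5 at 0.46 to 0.48, all below the median of 0.51. SNORD3@ (0.74), RNU6-1_RNU6-2 (0.65) and RNU6-1 (0.64) came last. These SDs hold differences between groups as well as within them. The pooled SD within groups was 0.18 for SNORD65 and 0.25 for 5S_rRNA on this scale, and 0.46 to 0.81 for the other members. After quantile normalization of the miRNA probes and placing of the small RNA probes on the same curve, 5S_rRNA had 0.32 and 123 of the 351 miRNA probes had a smaller SD. SNORD68 and SNORD65 followed at 0.33 and 0.34, SNORD13 at 0.35, RNU5 at 0.36 and SNORD38B at 0.38, against a median of 0.38. SNORD2 (0.58), RNU6-1_RNU6-2 (0.69) and SNORD3@ (0.75) varied most. Without both arrays that stand apart, the raw median of the miRNA probes was 0.41. RNU1 (0.48) then lay above it, and SNORD13 (0.32), RNU5 (0.36) and SNORD38B (0.38) lay below it. 5S_rRNA had 0.31 and SNORD65 0.35, with a smaller SD in 17.9% and 26.8% of the miRNA probes, against 4.84% and 5.41% over the 9 arrays.

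SNORD13 changed place most between scales, with the largest SD of the 11 in raw intensity (0.73) and the fourth smallest after normalization. The normalization added an offset of 50, and with plain background subtraction in its place SNORD13 had 0.55. Other members widened too, to 0.55 for SNORD38B, 0.47 for RNU5, 0.42 for SNORD68 and 0.68 for RNU6-1, while 5S_rRNA had 0.33 and SNORD65 0.34. The median of the miRNA probes was not computed for that setting. Without both arrays that stand apart, the SD of SNORD13 was 0.32 in raw intensity and 0.18 normalized. Normalized SDs without both arrays were 0.20 for SNORD68, 0.24 for SNORD38B, 0.25 for 5S_rRNA and 0.29 for RNU5 and SNORD65, against a median of 0.26 for the miRNA probes. RNU6-1 (0.50) and SNORD3@ (0.58) stayed wide.

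**Figure D2:**
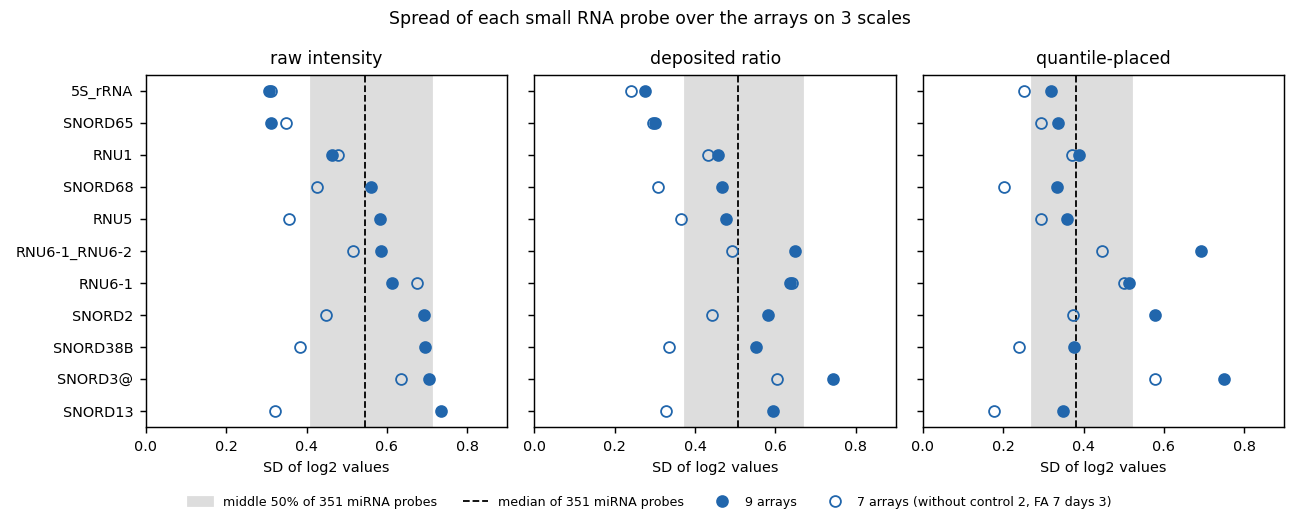
Standard deviation of the log2 values of each probe over 9 arrays (filled) and over 7 arrays without control replicate 2 and FA 7 days replicate 3 (open), on 3 scales. The middle 50% of 351 miRNA probes is a grey band and their median a dashed line, both over 9 arrays. Over the 7 arrays that median was 0.41, 0.36 and 0.26 from left to right, so open points are not to be read against the band. The filled points of 5S_rRNA and SNORD65 lie left of the band in raw intensity and in the deposited ratios and inside it after quantile placing. That of SNORD3@ lies right of the band on the last 2.

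The members moved in opposite directions on the arrays that stand apart. On control replicate 2, SNORD3@ lay 1.35, RNU6-1_RNU6-2 1.13, SNORD2 0.83 and SNORD68 0.76 above their 9-array means (normalized log2), while SNORD38B and SNORD13 lay at -0.68 and -0.50. On FA 7 days replicate 3, RNU6-1_RNU6-2 lay 0.88, RNU6-1 0.64 and 5S_rRNA 0.62 above, while SNORD2, RNU5, SNORD13 and SNORD38B lay at -1.07, -0.67, -0.61 and -0.40. SNORD38B and SNORD13 were thus low on both arrays, RNU6-1_RNU6-2 and SNORD3@ high on both, and SNORD2 high on one and low on the other. The part of array quality in these deviations was not tested. Over the 351 miRNA probes the median raw intensity was 229.5 on FA 7 days replicate 3, the lowest, and 312.5 on control replicate 2, within the 284.5 to 440 of the others.

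**Figure D3:**
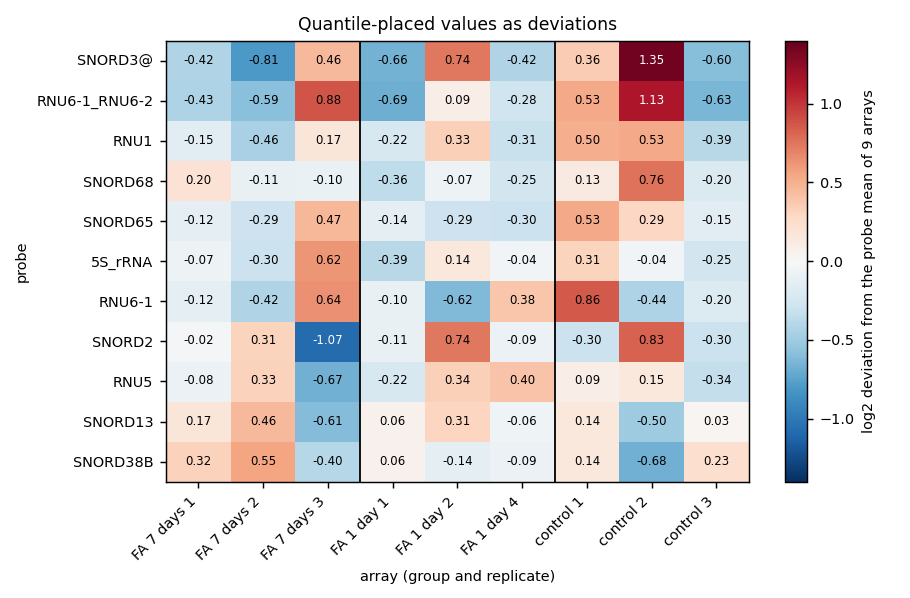
Deviation of each probe from its own mean over the 9 arrays on the normalized log2 scale, in columns for FA 7 days, FA 1 day and control, with red above and blue below the mean. Apart from SNORD68 (-0.10), the upper and lower rows have opposite colours on FA 7 days replicate 3, from 0.88 for RNU6-1_RNU6-2 to -1.07 for SNORD2. In FA 1 day all 3 arrays lie below the mean for SNORD65 (-0.14 to -0.30) and SNORD68 (-0.07 to -0.36).

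Ratios between the members, which no scaling of an array changes, separated the same probes. Over the 55 pairs, the SD of the log2 raw ratio ran from 0.21 to 1.21, with a median of 0.65, or 0.45 without both arrays that stand apart. RNU5 and SNORD2, a spliceosomal RNA and a snoRNA, kept the most even ratio, varying 1.52-fold over the 9 arrays. 5S_rRNA and SNORD65 followed with an SD of 0.23, and of 0.11 without both arrays, when the pair of 5S_rRNA and SNORD68 had 0.15. RNU5 and SNORD2 had 0.22 without both arrays, and were then no longer the most even pair. Over the 9 arrays RNU1, RNU6-1_RNU6-2 and SNORD3@ made a further set with SDs of 0.31 to 0.34 among themselves, as did SNORD13 and SNORD38B with 0.37. Without both arrays these were 0.23 to 0.34 and 0.37, but closer partners were found outside the sets. SNORD13 then had 0.16 with RNU5 and 0.25 with SNORD2, and SNORD38B had 0.23 with SNORD65. RNU6-1_RNU6-2 had 0.33 with 5S_rRNA, against 0.34 with SNORD3@. The least even was the ratio of SNORD3@ to SNORD38B, at an SD of 1.21 and a 12.2-fold range. Averaged over its 10 pairs, SNORD65 had the smallest SD (0.54), followed by RNU1 (0.56) and 5S_rRNA (0.57), and RNU6-1 the largest (0.83). Without both arrays 5S_rRNA had the smallest (0.35).

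**Figure D4:**
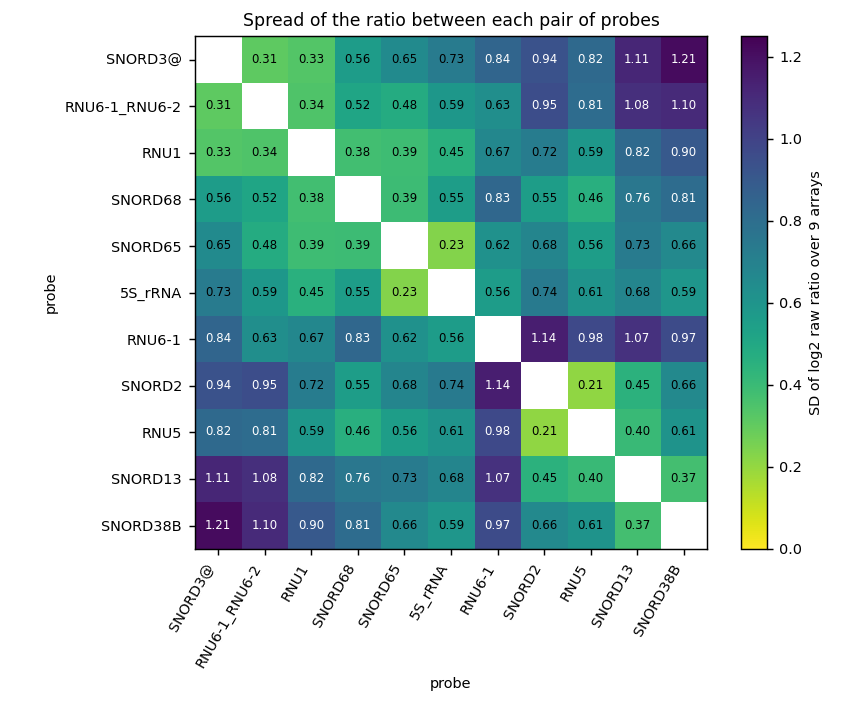
Standard deviation over the 9 arrays of the log2 ratio of raw intensities for each of the 55 pairs of probes, where a darker cell is a less even ratio. Light cells join SNORD3@, RNU6-1_RNU6-2 and RNU1 (0.31 to 0.34), 5S_rRNA and SNORD65 (0.23), and SNORD2 and RNU5 (0.21), while SNORD38B against SNORD3@ reaches 1.21.

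What each small RNA would do as the only reference was computed by subtracting its log2 raw intensity from those of the 351 miRNA probes on each array. Each resulting median is the median without a reference minus the raw difference of that small RNA. The medians therefore restate the raw differences of the members and are no further result about the miRNAs. The median miRNA then differed between FA 1 day and control by -0.34 with SNORD13 and by 0.72 with RNU6-1_RNU6-2, with 7 of the 11 references giving a positive and 4 a negative median. Without any reference it was 0.05. For FA 7 days versus control the median ran from -0.26 with SNORD38B to 0.52 with SNORD3@ (8 positive, 3 negative), and was 0.00 without a reference. For FA 7 days versus FA 1 day it ran from -0.51 with SNORD65 to 0.35 with SNORD13 (5 positive, 6 negative), and was -0.06 without one. 5S_rRNA and SNORD65 were the 2 members of smallest raw spread over the 9 arrays. With them the median for FA 1 day versus control was 0.12 and 0.44, or 0.31 and 0.43 without both arrays that stand apart. The mean of all 11 as reference gave 0.18, 0.13 and -0.06 in the 3 comparisons in that order. Without both arrays that stand apart the medians over the 11 references ran from -0.46 to 0.48, from -0.56 to 0.98 and from -0.66 to 0.48, and without any reference they were 0.07, 0.35 and 0.15.

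None of these references led to a miRNA probe past an adjusted p of 0.05 (limma, 351 probes, lowest adjusted p = 0.122). The number at an unadjusted p under 0.05 depended on the reference, from 1 with SNORD3@ to 40 with SNORD65 in FA 1 day versus control, and from 1 to 50, with SNORD65 again the highest, in FA 7 days versus FA 1 day. Without a reference these counts were 11 and 12.

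**Figure D5:**
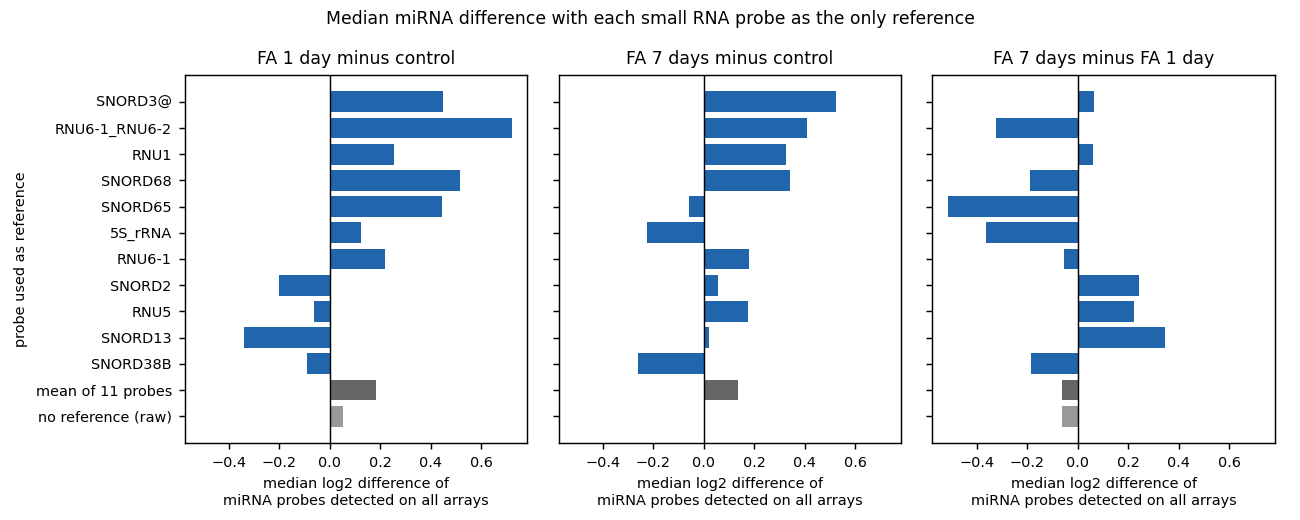
Median log2 difference over 351 miRNA probes when the raw values of each array are divided by the probe named at the left, by the mean of the 11 or by nothing, for FA 1 day minus control, FA 7 days minus control and FA 7 days minus FA 1 day. Bars point both ways in each panel, from -0.34 to 0.72 in the left one.

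Beside the small RNAs, 13 miRNAs that are commonly used as references were listed, of which 12 were detected on all arrays; miR-25-3p was detected on 8. One of the 12, miR-124-3p, takes the top rank on every array, so quantile normalization fixes it at 1 value and gives it no measured spread. All 4 of its spots were also at the scanner's ceiling on control replicate 2, where no spot of the small RNAs was. Of the other 11, 6 had a normalized SD below the median of the 351 probes, the same number as of the 11 small RNAs, and their median SD was 0.34, against 0.38 for the small RNAs and for all 351. miR-30e-5p and miR-423-3p had 0.17 and 0.18, and let-7a-5p the widest, 1.05. miR-361-5p had the smallest SD of all 351 in the deposited ratios (0.16) and 0.34 after quantile normalization. In the limma fit 0 of these 11 passed in any comparison, and 0 had an unadjusted p under 0.05, with medians of 0.12, 0.11 and -0.04 in the order above. Apart from miR-124-3p, the miRNA probes of smallest normalized SD were miR-138-1-3p, miR-490-5p and miR-296-3p at 0.12. miR-665-5p and miR-467e-5p followed at 0.14. These 5 were picked from 351 on this SD, so that they lay below every small RNA follows in part from the choice. miR-296-3p, miR-665-5p and miR-467e-5p were dim, with raw intensities of 52.5 to 96, 40 to 77 and 49 to 104.5. The part of the normalization's offset in their small spread was not tested. In raw intensity the SDs of the 5 were 0.25 to 0.40. miR-665-5p (0.25) and miR-490-5p (0.27) lay below 5S_rRNA (0.31) there, and the others did not.

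The miRNAs whose normalized values followed each small RNA most closely over the 9 arrays are given as a description, since the points share the arrays and their normalization. For SNORD65 they were miR-705 (Pearson r = 0.97) and miR-351-5p (0.97), and for RNU6-1_RNU6-2 miR-150-5p (0.97) and miR-1952 (0.96). miR-1981-3p came first for both SNORD3@ (0.96) and RNU1 (0.93), followed by miR-193b-5p (0.96) and a probe shared by miR-299-5p and miR-299b-5p (0.92). These held at 0.91 or more without both arrays that stand apart. SNORD2 was followed by miR-691 (0.95) and miR-24-1-5p (0.87), SNORD68 by miR-664-3p (0.94) and miR-361-3p (0.88), and SNORD38B by miR-218-5p (0.93) and miR-107-3p (0.92). For SNORD13 they were let-7i-3p and miR-137-3p (both 0.91), for 5S_rRNA miR-30d-5p (0.87) and miR-138-5p (0.85), and for RNU6-1 miR-744-5p (0.86) and miR-1895 (0.85). RNU5 had the loosest, miR-9-3p and miR-331-3p (both 0.70), the first with the same value on 8 of 9 arrays. Without both arrays r was 0.26 for RNU5 with miR-331-3p, 0.61 for SNORD68 with miR-361-3p, 0.62 for SNORD13 with let-7i-3p and 0.70 with miR-137-3p, 0.71 for 5S_rRNA with miR-30d-5p, 0.71 for SNORD2 with miR-24-1-5p and 0.72 for SNORD38B with miR-107-3p. For the other pairs with a value it was 0.7456 or more.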

How the data were processed

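Total RNA was labelled with the single dye Hy3 from an Exiqon kit, per the labels' protocols, and read on miRNA arrays. Per the file headers, the authors deposited for 12312 spots a foreground intensity and a background-subtracted one. The deposited ratio table equals, within 1% for 100% of its values on each array, the median foreground minus background of a probe divided by 1 factor per array (290.5 to 519), so its scale is linear, its centring is that factor and its direction is that of the intensity; its column medians run from 0.0196 to 0.160. For the scanner, image software and batches nothing was given in the sources used here. From the raw table, background was corrected with limma's normexp (offset 50, R 4.3.3, limma 3.58.1), the spots of a probe were averaged, and quantile normalization ran over 1084 miRNA probes, then log2; small RNA probes were placed on each array's curve. limma (lmFit, eBayes, group means, all 9 arrays, two-sided) tested the 462 mouse miRNA probes and 11 small RNA probes that all arrays of 1 or more groups detected, with Benjamini-Hochberg adjustment over all 473 and a threshold of 0.05. The number of arrays limits the precision. The fit was tested on simulated data. Alternatives changed the normalization, background, filter, spots and arrays used. Named are all members, the 2 most alike miRNAs of each, the 5 of smallest spread and a list of 13 reference miRNAs; members and lists were chosen with earlier results of these data known. Foreground values were identical between 2 arrays at 10.7% of spots or fewer. Labels give replicates 1, 2 and 4 for FA 1 day.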

Additional observations from a re-analysis of the deposited data

How the results depend on the processing

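Of the 33 differences of the small RNAs, 0 passed the threshold under any alternative (limma, lowest adjusted p = 0.151, SNORD38B in FA 7 days versus FA 1 day without both arrays that stand apart), and 11 kept their sign under all of them. The number of all probes past the threshold was 0 throughout, except 1, miR-3104-3p, without control replicate 3 in FA 1 day versus control (adjusted p = 0.0248), FA 7 days versus control (0.0338) and the F-test (0.0451), so leaving out arrays gave 0 to 1. Signs turned as follows, with the cause not tested. Without normalization SNORD13 (-0.012) and SNORD65 (0.041) in FA 7 days versus control and SNORD38B in FA 1 day versus control (-0.088) turned. With 1 factor per array 5S_rRNA (0.0021) and SNORD38B (-0.067) in FA 1 day and SNORD65 in FA 7 days (0.080), each versus control, did, and with the deposited ratios SNORD13 (-0.012) and SNORD65 (0.065) in FA 7 days versus control. Deviations of same-numbered arrays correlated at r from -0.58 to 0.35, with 3 of 7 pairs over 0.1. So few pairs cannot tell whether the numbers pair the arrays. With the replicate number as a block 0 probes passed, with 14, 5, 16 and 6 at an unadjusted p under 0.05 in the 3 comparisons and the F-test, and RNU5 (-0.12) and SNORD2 (-0.057) in FA 1 day versus control and RNU5 in FA 7 days versus FA 1 day (0.0094) turned. Without both arrays that stand apart, FA 7 days versus control turned for 5S_rRNA (-0.22), RNU5 (0.25), SNORD2 (0.48) and SNORD68 (0.088), FA 7 days versus FA 1 day for 5S_rRNA (-0.093), RNU6-1 (-0.17), RNU6-1_RNU6-2 (-0.22) and SNORD13 (0.22), and FA 1 day versus control for SNORD3@ (0.010) and SNORD38B (-0.25). Leaving out 1 array at a time turned 19 differences. In FA 1 day versus control their ranges were, for 5S_rRNA from -0.24 to 0.057, RNU6-1 from -0.45 to 0.21, SNORD2 from -0.17 to 0.50, SNORD3@ from -0.97 to 0.0076 and SNORD38B from -0.25 to 0.22. In FA 7 days versus control their ranges were, for 5S_rRNA from -0.19 to 0.26, RNU5 from -0.34 to 0.16, RNU6-1 from -0.35 to 0.36, RNU6-1_RNU6-2 from -0.88 to 0.0045, SNORD13 from -0.11 to 0.43, SNORD2 from -0.61 to 0.075, SNORD38B from -0.030 to 0.54 and SNORD68 from -0.44 to 0.038. In FA 7 days versus FA 1 day their ranges were, for 5S_rRNA from -0.092 to 0.36, RNU1 from -0.24 to 0.12, RNU6-1 from -0.16 to 0.40, RNU6-1_RNU6-2 from -0.22 to 0.51, SNORD13 from -0.32 to 0.22 and SNORD3@ from -0.50 to 0.29. The median over spots was chosen as an alternative after seeing the data and turned no sign. Dim probes and 3 arrays per group limit what can be detected.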
